A study of Homo sapiens with 24 samples.

Results

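The difference between HT29 and HCT116 that remained once both colorectal cancer lines had lost β-CATENIN was examined in RNA-seq data. The comparison holds 8 of the 24 libraries of the series, chosen by cell line and genotype alone: 4 libraries of HT29 clones 28 and 38 and 4 libraries of HCT116 clones 44 and 47, all with the *CTNNB1* gene knocked out (KO) on both alleles. Exon 7 of *CTNNB1* had been deleted with CRISPR/Cas9, single cells had been expanded into clones, and every clone went through RNA-seq in rounds A and B without any further treatment. The same lines with intact *CTNNB1* served only for comparison: these were 4 HT29 libraries of wild type (WT) clones 11 and 40 and 4 HCT116 libraries of WT clones 4 and 6. SW480, the third line of the series, was not used here. Each line was thus represented by 2 KO clones, and both libraries of a clone came from the same mutant clone.

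HT29 and HCT116 are established lines from human colorectal carcinomas. In the WNT/β-CATENIN pathway, a destruction complex that contains APC and AXIN marks β-CATENIN for degradation, and β-CATENIN that escapes it enters the nucleus and activates genes through TCF/LEF factors. HT29 cells carry truncating mutations of *APC*, whereas HCT116 cells carry an activating mutation of *CTNNB1* itself, so that the pathway is switched on at different steps. HT29 cells form differentiated absorptive and mucus-producing cells under suitable conditions, while HCT116 cells hardly differentiate. The comparison asks which differences between the lines stand when β-CATENIN is missing from both.

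*CTNNB1* itself (ENSG00000168036, chromosome 3 of GRCh37, 41236232 to 41301587) was at 256, 293, 313 and 337 normalized read counts in HT29 KO 28A, 28B, 38A and 38B, and at 187, 222, 207 and 255 in HCT116 KO 44A, 44B, 47A and 47B. All 8 values lay far below those of the WT clones, which were at 6021 ± 99.3 in HT29 and 11918 ± 999.9 in HCT116 (SD, n = 4 each), so that the libraries followed their labels. Values of KO libraries are given in this order of libraries throughout. A normalized read count is the number of reads on a gene after scaling by a single size factor for its library, without correction for gene length, so that values are compared between libraries and not between genes. The KO line difference of *CTNNB1* was 0.46 ± 0.18 (SE) on the log2 scale and did not pass the threshold (adjusted p = 0.0655).

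The 8 libraries held between 24832650 and 29028157 reads on genes. HCT116 KO 47A stood apart, with reads in 35449 genes against 20256 to 23316 in the other KO libraries of both lines. Of 27561 genes without a read in the 7 other HCT116 libraries, 9400 had reads in 47A, which summed to 0.0867% of its reads, with at most 34 in a gene. In HT29, library 38B had the fewest genes with a read, 20256. It differed from 38A by a chi-square of 221 per gene over genes with at least 20 reads, where the rounds of the other 3 clones differed by 16.3 to 32.0. Without 47A and 38B, a comparison added after seeing the data, 5436 genes were called where 5339 were called with all 8 libraries. In bulk RNA, fewer cells that express a gene and less RNA per cell cannot be told apart.

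The genes with the largest differences were on in one line and close to silent in the other, and their promoters are shown here to put letters to both groups. The following are the 250 bases before the RefSeq start (GRCh38.p14) of the first 3 genes in each direction that have a promoter in the table used and whose bases lie in no annotated transcript of the gene. They are written along the gene's own strand, 5′ to 3′, with each CG dinucleotide in capitals. The first group, *LGALS4*, *AGR2* and *KRT20*, was high in HT29 KO.
LGALS4 (minus strand, chr19:38812946-38813195): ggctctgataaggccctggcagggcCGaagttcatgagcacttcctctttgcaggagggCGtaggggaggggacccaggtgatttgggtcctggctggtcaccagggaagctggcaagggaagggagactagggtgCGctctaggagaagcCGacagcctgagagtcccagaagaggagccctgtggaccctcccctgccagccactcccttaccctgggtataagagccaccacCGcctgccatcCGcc
AGR2 (minus strand, chr7:16805000-16805249): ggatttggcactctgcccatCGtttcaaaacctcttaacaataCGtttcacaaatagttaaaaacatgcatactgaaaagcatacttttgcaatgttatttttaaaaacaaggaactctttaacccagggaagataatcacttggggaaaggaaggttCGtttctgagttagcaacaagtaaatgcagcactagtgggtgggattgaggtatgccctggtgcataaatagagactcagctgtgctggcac
KRT20 (minus strand, chr17:40885243-40885492): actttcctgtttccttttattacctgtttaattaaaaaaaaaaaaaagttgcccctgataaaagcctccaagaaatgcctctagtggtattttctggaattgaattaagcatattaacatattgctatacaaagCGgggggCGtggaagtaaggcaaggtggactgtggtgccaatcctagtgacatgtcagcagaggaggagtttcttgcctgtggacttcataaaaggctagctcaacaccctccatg
The second group, *MAGEB2*, *GTSF1* and *COL6A2*, was high in HCT116 KO.
MAGEB2 (plus strand, chrX:30215313-30215562): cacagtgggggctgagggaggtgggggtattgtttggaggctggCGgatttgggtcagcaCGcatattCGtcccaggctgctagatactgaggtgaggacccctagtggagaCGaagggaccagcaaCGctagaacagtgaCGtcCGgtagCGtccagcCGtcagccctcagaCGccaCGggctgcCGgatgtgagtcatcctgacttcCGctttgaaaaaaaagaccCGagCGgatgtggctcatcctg
GTSF1 (minus strand, chr12:54473603-54473852): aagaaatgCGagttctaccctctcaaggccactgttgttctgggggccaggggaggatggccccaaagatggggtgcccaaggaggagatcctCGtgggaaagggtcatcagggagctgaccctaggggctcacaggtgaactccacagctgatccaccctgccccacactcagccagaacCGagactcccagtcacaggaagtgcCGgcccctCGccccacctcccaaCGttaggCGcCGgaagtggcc
COL6A2 (plus strand, chr21:46097862-46098111): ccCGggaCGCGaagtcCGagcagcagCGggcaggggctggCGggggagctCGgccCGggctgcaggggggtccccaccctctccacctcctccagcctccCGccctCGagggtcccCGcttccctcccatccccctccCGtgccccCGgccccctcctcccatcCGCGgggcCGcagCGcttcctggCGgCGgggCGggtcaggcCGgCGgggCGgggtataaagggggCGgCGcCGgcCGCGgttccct
CG reads the same on both strands, and its occurrences cannot overlap each other. There were 6, 3 and 2 CG in the promoters of *LGALS4*, *AGR2* and *KRT20*, and 15, 8 and 28 in those of *MAGEB2*, *GTSF1* and *COL6A2*. The ranges overlapped over all leading genes with a promoter in the table, from 2 to 24 for 7 HT29 genes and from 1 to 32 for 8 HCT116 genes. *TXNIP* and *IGFBP4*, high in HT29, had 18 and 24 CG, and *HS6ST2*, high in HCT116, had 1.

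Promoters with few CG made up a larger share of the genes silent in HCT116 KO than of those silent in HT29 KO. A gene was taken as silent, or at its floor, where each library of a line held at most 3 reads and the mean of the other line was at least 100. This held for 215 genes in HT29 KO and for 130 genes in HCT116 KO, or for 223 genes when library 47A was left out. A promoter sequence was matched for 151 of the 215 and 89 of the 130 genes, and for 10989 of the 15771 genes tested. The median number of CG in 250 bases was 21 for the genes at the floor in HT29, 6 for those at the floor in HCT116 and 21 over the tested genes. At least 15 CG were present in 67.5%, 32.6% and 72.5% of these promoters, respectively, and at most 5 CG in 10.6%, 44.9% and 10.1%. Without 47A the median of the genes at the floor in HCT116 was again 6, over 157 matched genes. The WT clones, which share no library with the KO clones, gave medians of 19 CG for 204 matched genes at the floor in HT29 and 7 CG for 117 matched genes at the floor in HCT116. Many genes were in both sets, as 167 of the 215 genes at the floor in HT29 KO were so in HT29 WT as well, and 62 of the 130 in HCT116. Counts of CG are a description of the sequence, and the methylation of these promoters was not measured.

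Across all genes, the lines differed about as often without β-CATENIN as with it. Genes were tested if 4 or more of the 8 libraries reached a normalized read count of 10. Of 15771 such genes, 5339 (33.9%) were called different between HT29 KO and HCT116 KO, with an adjusted p under 0.05 in limma and an absolute log2 difference over 1. Higher in HT29 were 2549 genes (16.2%) and higher in HCT116 were 2790 genes (17.7%). The libraries of the lines did not overlap for 7603 of the tested genes (48.2%). An absolute log2 difference over 5 was reached by 1026 of the called genes. The median over the tested genes was −0.02 on the log2 scale. With the values of each clone averaged, so that 2 clones stood against 2, 3986 genes were called, and 4803 when the clone was a random effect. The clones, not the rounds, are the independent samples of a line, and each p-value from 8 libraries measures in part the spread between rounds of 1 clone.

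Most of the variation between the 8 libraries lay between the lines. Of the sum of squares of log2 values over the tested genes, 81.2% was between lines, 12.3% between the clones of a line and 6.44% between rounds of a clone. Across the tested genes, Pearson's correlation of log2 values ranged from 0.704 to 0.753 between libraries of different lines, from 0.916 to 0.95 between HT29 KO clones 28 and 38, and from 0.973 to 0.978 between HCT116 KO clones 44 and 47. Genes are not independent of each other, so these values describe the libraries only.

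The 10 leading genes on the HT29 side included several products of differentiated gut epithelium. Leading genes of both lines were chosen by the size of the difference among well-expressed called genes. Only genes whose libraries did not overlap between the lines were eligible, so that their separation was fixed by the choice. *LGALS4* (ENSG00000171747, chromosome 19 of GRCh37, 39292311 to 39303585), which encodes the epithelial lectin galectin-4, was at 32433, 27378, 30874 and 34040.5 in HT29 KO and at 1.97, 0.942, 1.07 and 0.952 in HCT116 KO. None of the HCT116 libraries held more than 3 reads. The log2 difference was 13.79 ± 0.20 (adjusted p = 1.58e-09, limma). *AGR2* (ENSG00000106541, chromosome 7, 16831435 to 16873057), a protein disulfide isomerase needed for mucus production, was at 23108, 16907, 13361 and 23166 and at 0, 0, 4.28 and 0. The 3 HCT116 libraries other than 47A held no read of it. *KRT20* (ENSG00000171431, chromosome 17, 39032141 to 39041494), the keratin of mature intestinal cells, was at 21316, 17208, 18008 and 9565 against 0.983, 0, 0 and 0.952. The HCT116 libraries held 2 reads in all, which gives a ratio of 34459 with a 95% counting interval from 9539 to 284545 that covers counting error only. Log2 differences were 13.59 ± 0.54 for *AGR2* (adjusted p = 1.46e-07) and 13.46 ± 0.35 for *KRT20* (adjusted p = 2.42e-08). Since they are differences of log2 of the value plus 1, they understate the change of genes near 0. With the values of each clone averaged, limma gave an adjusted p of 0.000638 for each of *LGALS4*, *AGR2* and *KRT20*.

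*LYZ* (lysozyme, an antibacterial enzyme) was at 21624 ± 6478 in HT29 KO (SD, n = 4) and 1.26 ± 0.994 in HCT116 KO. *GPX2*, the glutathione peroxidase of the gut, was at 26279 ± 6713 against 2.23 ± 1.69, and *TM4SF4*, a tetraspanin-like membrane protein, at 22508 ± 15624 against 1.75 ± 1.52. *TM4SF4* was uneven among HT29 clones, with 38956, 32698, 7929.8 and 10448. *CST1*, a cystatin, held no read in any HCT116 KO library and 4104, 2531, 4705 and 6871 in HT29 KO, at least 1538-fold higher when the HCT116 libraries are set to their floor of 3 reads each. *TXNIP*, the thioredoxin-interacting protein, was at 9275, 7456, 4584 and 4182 against 0, 0, 5.35 and 0. *IGFBP4*, an insulin-like growth factor binding protein, was at 3338, 2575, 6741 and 11145 against 0, 0, 2.14 and 0, with the HT29 values higher in clone 38 than in clone 28. *MUC5AC*, a gel-forming mucin of the stomach that appears in some colorectal tumors, was at 5099, 6067, 11341 and 5379 against 0, 0, 9.63 and 0. The HCT116 reads of *AGR2*, *TXNIP*, *IGFBP4* and *MUC5AC* all lay in 47A, the library with reads in many more genes. Among these genes, *LYZ* and *GPX2* overlap other genes on the opposite strand, whose reads could not be told apart by the unstranded kit, and *CST1* belongs to a family of similar genes between which reads could be split.

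The 10 leading genes on the HCT116 side included genes of matrix and secreted proteins and genes known from the germline. *MAGEB2* (ENSG00000099399, chromosome X of GRCh37, 30233680 to 30238206), a cancer-testis antigen gene, was at 5757, 5612, 5788 and 5873 in HCT116 KO and held no read in the 4 HT29 KO libraries. This is at least 1815-fold higher in HCT116 with HT29 at a floor of 3 reads per library. *GTSF1* (ENSG00000170627, chromosome 12, 54849734 to 54867386), a factor of the germline small RNA pathway, was at 4959.9, 4532, 6153 and 6019.6, with 1 read in HT29, in library 38B. *ELOVL5*, a fatty acid elongase, was at 3109.8, 3566, 2663 and 3291 and at 0 in HT29, at least 995-fold higher. *COL6A2* (ENSG00000142173, chromosome 21, 47518026 to 47552762), a collagen VI chain, was at 3088, 2413, 2534 and 2195 and at 0 in HT29, at least 806-fold higher. The gap junction gene *GJC1*, the collagen gene *COL12A1* and the neuropeptide gene *GAL* held 2, 1 and 2 reads over the HT29 KO libraries and 3242 ± 622, 2883 ± 824 and 2427 ± 539 normalized read counts in HCT116 KO. *HS6ST2*, a heparan sulfate sulfotransferase, *FAM171A1* and *STC2*, the glycoprotein hormone stanniocalcin 2, held no HT29 KO read and were at 2088 ± 423, 1969 ± 104 and 1799.5 ± 163 in HCT116 KO. Log2 differences of the 10 genes ranged from −12.49 ± 0.21 for *MAGEB2* (adjusted p = 2.35e-09, limma) to −10.81 ± 0.23 for *STC2* (adjusted p = 8.47e-09). The same genes were the silent ones in WT cells too, where the HT29 mean of each was at or below 1.48 normalized read counts. *ELOVL5*, *GTSF1*, *HS6ST2* and *FAM171A1* have other annotated genes within their spans on the opposite strand.

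Genes were then read by lists of known function, each beside the shares called over all genes, 16.2% higher in HT29 and 17.7% higher in HCT116. A gene that is on in 1 line only passes the filter on low values through that line, so that counts over tested members describe the lists and are no test of them. Some lists share members, so that their counts are not independent. *KRT20*, for example, is in the lists of colon epithelial markers, absorptive genes and keratins.

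Epithelial genes of the colon were mostly higher in HT29 KO. Of 12 tested colon epithelial markers, 10 were higher in HT29, 1 in HCT116, and 1 was not called, with a median log2 difference of 2.06. *EPCAM*, the defining surface marker, was at 28233 and 18477 normalized read counts on average and not called, and the keratin genes *KRT8* and *KRT18* were called with log2 differences of 1.91 and 1.995, so that both lines expressed epithelial markers. *CDH1*, which encodes E-cadherin, was at 17544, 18417, 7339 and 5859 in HT29 KO and 3278, 3534, 2805 and 3674 in HCT116 KO (log2 difference 1.72 ± 0.37, adjusted p = 0.00412). Clone 28 was above clone 38, and both were above HCT116. The exception among the markers was *CDX2*, a homeobox factor that specifies intestine, at 15.1, 2.94, 19.9 and 7.78 in HT29 KO and 478, 421, 425 and 424 in HCT116 KO. Its log2 difference was −5.40 ± 0.48 (adjusted p = 2.03e-05, limma) and it had the opposite sign of the genes that mark differentiated colon.

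Transcription factors of the gut differed mostly toward HT29 as well. Of 17 tested, 10 were higher in HT29 and 3 in HCT116, with a median of 1.87. *EHF*, an ETS factor of epithelia, was at 5005, 7538, 4836 and 1169 against 7.86, 5.65, 2.14 and 1.90. *HNF4A*, which drives enterocyte genes, was at 669.9, 739, 1659 and 1173 against 15.7, 8.48, 176 and 159.9, and the HCT116 clone 44 was lower than clone 47. Among the members higher in HCT116 KO were *CDX2* and *PDX1*, a homeobox factor of foregut and pancreas, which had a log2 difference of −2.02 (adjusted p = 0.000934, limma).

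Products of absorptive and secretory cells were mostly higher in HT29 KO. Among 11 tested absorptive genes of 28, 8 were higher in HT29 and 1 in HCT116, with a median of 5.15. *VIL1* (villin, which bundles actin in microvilli) was at 6740.0, 6316, 1812 and 1431 against 0.983, 0, 5.35 and 0, with clone 28 above clone 38. *CDHR2*, a protocadherin of the brush border, was the member higher in HCT116 (2.69 ± 1.85 in HT29 and 23.2 ± 4.61 in HCT116 KO). The secretory list had 11 tested genes of 23, 8 higher in HT29 and 2 in HCT116, with a median of 7.20. *REG4*, a secreted lectin of goblet and endocrine cells, was at 471, 378, 36222 and 36898 in HT29 KO and 0.983, 1.88, 9.63 and 1.90 in HCT116 KO. Its level was thus more than an order of magnitude higher in HT29 clone 38 than in clone 28, and the log2 difference of 10.07 had an SE of 1.58 (adjusted p = 0.000698). Higher in HCT116 KO were *GFI1*, a repressor in secretory precursors, with 172, 214, 131 and 122 against 5.03, 6.85, 18.0 and 18.2 in HT29, and *TPH1*, the enzyme of serotonin synthesis. Of 6 tested mucin genes, *MUC5AC*, *MUC13* and *MUC2* were called, all higher in HT29 KO. *MUC13* was at 1291, 1042, 1342 and 897 in HT29 KO and 7.86, 3.77, 108 and 110.4 in HCT116 KO, where clone 44 was near 0 and clone 47 was not.

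In the CEACAM family of adhesion molecules, 5 of 6 tested genes were higher in HT29 KO, with a median of 7.51. *CEACAM6* was at 6829.5, 6118, 17397 and 13402 against 0.983, 0, 142 and 113, and *CEACAM5*, the carcinoembryonic antigen, at 3617, 3375, 2368 and 1228 against 0, 0, 22.5 and 10.5. The family members are similar enough for reads to be split between them. Among keratin genes, 7 of 13 tested were higher in HT29 KO and *KRT7* and *KRT81* higher in HCT116 KO. *KRT13*, a keratin of squamous epithelia, was at 5121, 4254, 2789.7 and 2299 against 6.88, 3.77, 3.21 and 2.85, and *KRT17* at 170.0, 174, 289 and 439.5 against 0.983, 0, 3.21 and 0.952. *KRT7* was at 715, 571, 306 and 756 in HT29 KO and 10816, 11162, 1729.8 and 1684 in HCT116 KO, high in clone 44 and lower in clone 47, with no overlap of the lines. *KRT7* shares its span with *KRT86* and with genes on the other strand. For *KRT81* the lines overlapped, with 16.1 as the highest HT29 value and 13.9 as the lowest HCT116 value.

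Junction genes were split in both directions. Of 33 tested, 11 were higher in HT29 and 5 in HCT116, with a median of 0.45. The claudins *CLDN2* and *CLDN1*, which form tight junctions, were at 1065, 897, 8037 and 4862 and 1184, 1358, 1162 and 1267 in HT29 KO and at or below 6.42 in every HCT116 KO library. On the HCT116 side were *CDH3* (P-cadherin), at 6101, 5574, 4439 and 4145 against 2.01, 0, 345 and 289 in HT29, and the desmosomal *DSC3*, at 39.3, 29.2, 377 and 575 against 4.02, 5.87, 1.90 and 0. *CDH3* was near 0 in HT29 clone 28 only, and *DSC3* was higher in HCT116 clone 47 than in clone 44.

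Mesenchymal genes and regulators of epithelial-mesenchymal transition (EMT) were mostly higher in HCT116 KO, 12 of 18 tested, with 4 higher in HT29 and a median of −2.73. *ITGA5*, the α-subunit of the fibronectin receptor, was at 1558, 1451, 2062 and 1732 in HCT116 KO and 1.01, 1.96, 1.90 and 0 in HT29 KO. The receptor tyrosine kinase gene *AXL* was at 5228, 5810.1, 3101 and 3318 against 12.1, 13.7, 43.6 and 19.4. The transcriptional repressors *SNAI2* and *TWIST1* were at 233 and 35.6 in HCT116 KO on average and at 0 in HT29 KO, with log2 differences of −7.61 and −5.03, and *ZEB1* differed by −2.92. Among the members higher in HT29 were *TGFB2*, at 149.9, 194, 1270.1 and 442 against 0, 1.88, 13.9 and 1.90, and *COL4A2*, at 191, 237, 292 and 341 against 2.95, 2.83, 13.9 and 3.81. *VIM*, the mesenchymal filament gene, and *CDH2*, which encodes N-cadherin, were not tested because both lines were below the filter. Of 19 tested integrin and laminin genes, 3 were higher in HT29 and 5 in HCT116. *ITGB6*, which pairs with integrin αv in epithelia, was at 2409, 2072, 1631 and 1134 in HT29 KO against 3.93, 5.65, 14.99 and 8.56, and the laminin chain gene *LAMC1* at 5994, 6892, 13102 and 16914 in HCT116 KO against 1411, 1667, 1924 and 891.

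Components and targets of the WNT pathway differed in both directions although β-CATENIN was missing from both lines. Of 20 tested, 6 were higher in HT29 KO and 8 in HCT116 KO, with a median of −0.18. *RNF43*, a ubiquitin ligase that removes FRIZZLED receptors, was at 3089, 3518, 6346 and 3641 in HT29 KO and 37.3, 55.6, 73.9 and 74.2 in HCT116 KO (log2 difference 6.07 ± 0.30, adjusted p = 4.63e-07, limma). *BMP4* was at 5669.8, 4929, 6089.6 and 2148 and 279, 295, 162 and 285. *AXIN2*, a common readout of the pathway, was at 15.1, 22.5, 158 and 119 and 12.8, 7.54, 14.99 and 6.66, so that HT29 clone 38 was above HT29 clone 28 and HCT116 (2.24 ± 0.75, adjusted p = 0.0338). Higher in HCT116 KO were the TCF/LEF factor gene *TCF7L1*, at 333, 260.0, 396 and 391 against 26.2, 2.94, 5.69 and 0, the Eph receptor gene *EPHB2*, at 1127, 902, 822 and 598 against 9.05, 15.7, 11.4 and 19.4, and the cyclin gene *CCND1*, at 21487, 19688, 25548 and 28332 against 2883, 3087, 1766 and 1178. *MYC* was at 6446 ± 1471 in HT29 and 8783 ± 1280.0 in HCT116 KO and was not called (−0.46 ± 0.19, adjusted p = 0.0676). *APC* was at 1176 ± 233 and 886 ± 218 and was not called either. The span of *CCND1* overlaps *LTO1* and that of *MYC* overlaps *CASC11* on the opposite strand.

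For the TGF-β and BMP pathways, 6 of 24 tested genes were higher in each line. *ID3*, a target of BMP signaling, was at 1391, 1088, 1599 and 1226 in HCT116 KO and 3.02, 11.7, 0.949 and 13.0 in HT29 KO, and the ligand genes *BMP7* and *BMP2* differed in opposite directions, by −5.94 ± 0.67 and 5.74 ± 1.11. *SMAD4*, the common mediator of both pathways, was at 286, 279, 248 and 319 in HT29 KO and 1510.2, 1518, 1424 and 1559.6 in HCT116 KO, with little spread within a line (−2.41 ± 0.14, adjusted p = 1.31e-06). Of 20 feedback genes of the MAPK pathway, 5 were higher in each line. *DUSP6*, a phosphatase for ERK, was at 2726, 2314, 2473 and 3176 in HT29 and 728, 655, 515 and 448 in HCT116 KO. *DUSP5* was at 533, 404, 1088 and 1088 and 11634, 11892, 18745 and 13764 and *FOSL1*, an AP-1 factor, at 691, 619, 1496 and 712 and 13239, 10671, 17013 and 14021, the reverse order. *EGR1* was at 1556, 1383, 1243 and 613 in HT29 KO and 119.9, 97.0, 374 and 331 in HCT116 KO.

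Of 27 cell cycle genes, all tested, 22 were not called and 5 were higher in HCT116 KO, with a median of −0.50. This share is close to the 17.7% of all tested genes called higher in HCT116. The 5 genes were *CDT1*, *MCM5*, *TYMS*, *CCNE2* and *BIRC5*, of which the licensing factor gene *CDT1* had the largest difference (−1.53 ± 0.16).

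HOX genes, which carry positional identity along the body axis, differed by cluster member. Of 27 tested of 39, 10 were higher in HT29 KO and 4 in HCT116 KO. *HOXB9* was at 5214, 5713, 6818 and 5943 in HT29 KO and 345, 317, 371 and 378 in HCT116 KO, and *HOXB2* at 138, 123, 259 and 482 and 6.88, 16.01, 10.7 and 4.76. All 6 called members of the HOXB cluster were higher in HT29, namely *HOXB2*, *HOXB3*, *HOXB5*, *HOXB6*, *HOXB8* and *HOXB9*, a grouping noticed after the values were seen. *HOXC9*, *HOXC10*, *HOXD8* and *HOXA9* were the members higher in HCT116 KO. *HOXC9* was at 178, 149.8, 209 and 221 against 3.02, 7.83, 2.85 and 0 and *HOXD8* at 210.3, 201, 254 and 213 against 3.02, 0.978, 9.49 and 7.78, with annotated antisense genes in both spans.

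Enzymes and transporters of drug metabolism were more often higher in HT29 KO, 15 of 23 tested against 3 higher in HCT116 KO, with a median of 3.77. *ALDH1A1*, a retinaldehyde dehydrogenase, was at 1450.4, 2642, 6661 and 8561 in HT29 KO and at 0, 0, 3.21 and 0 in HCT116 KO. *ALDH1A3*, of the same family, had the reverse order, with 20406, 18632, 3174 and 3344 in HCT116 KO, highest in clone 44, and 225, 265, 207 and 233 in HT29 KO. *AKR1C2*, an aldo-keto reductase with near-identical relatives, was at 1767, 2158, 8496 and 11566 against 5.90, 0.942, 26.8 and 7.61, higher in HT29 clone 38 than in clone 28. The efflux pump gene *ABCC2* was at 1011, 1122, 1143 and 1442 in HCT116 KO and 0, 0, 126 and 75.2 in HT29 KO, where clone 28 held no read.

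Genes of antigen presentation by MHC class I were mostly not called. Of 18 tested, 5 were higher in HT29 KO, 2 in HCT116 KO and 11 were not called, with a median of −0.07. The immunoproteasome gene *PSMB8* was at 1186, 901, 276 and 687 in HT29 KO and 3.93, 1.88, 3.21 and 0 in HCT116 KO, and *ERAP2*, an aminopeptidase that trims peptides, at 3191, 3475, 2572 and 2977 and 91.4, 119, 78.1 and 99.0. *HLA-B* and *HLA-C* were the members higher in HCT116 KO, by −2.30 ± 0.54 and −1.83 ± 0.24. HLA genes are polymorphic, and reads of alleles that differ from the reference can be lost in alignment. *PSMB8* overlaps *PSMB9* on the other strand.

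Interferon-stimulated genes, which are turned on by type I and type II interferons and by viral RNA, were uneven within HT29 KO. Of 26 tested, 11 were higher in HT29 and 2 in HCT116, with a median of 1.90, but the summed normalized read counts of the 31 members were 143777 and 99196 in the HT29 libraries 28A and 28B, 12972 and 16843 in 38A and 38B, and 19005 to 20404 in the 4 HCT116 KO libraries. For the sum, HT29 clone 28 was thus above HCT116, and HT29 clone 38 below it. The median difference between HT29 clones 28 and 38 over the tested members was 3.23 on the log2 scale, where it was 0 over all tested genes. *OAS1*, a sensor of double-stranded RNA, was at 8925, 5811, 588 and 441 in HT29 KO and 16.7, 24.5, 2.14 and 0 in HCT116 KO, and *BST2* at 7219, 5423, 1246 and 2839 and 12.8, 20.7, 4.28 and 5.71. For both genes the clones of HT29 differed but stayed above HCT116. *IFITM3* was at 2812, 1659.5, 129 and 217 in HT29 KO and 7496, 5539.8, 7088 and 6023 in HCT116 KO, and *IFITM2* was also higher in HCT116 (−1.27 ± 0.22). With clone means, 6 members were called higher in HT29 and 1 in HCT116, where 1868 and 2118 of all 15771 tested genes were.

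Among chemokines and mucosal defence genes, 13 of 25 were tested, 4 were higher in HT29 KO and 4 in HCT116 KO. *S100P*, a calcium-binding protein, was at 11182, 8332, 8344 and 23995 in HT29 KO and 0.983, 6.59, 9.63 and 0.952 in HCT116 KO, and the mucosal chemokine gene *CCL28* at 349, 322, 144 and 157 and 2.95, 0, 3.21 and 0.952. *IL18*, a cytokine made by epithelia, was at 6621, 6880.2, 6388 and 6220.4 in HCT116 KO and 305, 261, 209.6 and 464 in HT29 KO, and *TNFAIP3* at 18.1 ± 9.25 in HT29 and 119.9 ± 4.27 in HCT116.

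Of 22 cancer-testis genes, only 6 were tested, 4 were higher in HCT116 KO and *MAGEA12* was higher in HT29 KO. *PRAME* was at 365, 325, 409 and 355 in HCT116 KO and at 0 in HT29 KO, at least 115-fold higher in HCT116. *MAGEA12* was at 19.1, 20.5, 45.5 and 84.3 in HT29 KO and 0, 0, 4.28 and 1.90 in HCT116 KO. The summed values of the list were 49.3 and 47.0 in HT29 clone 28, 2333 and 5689 in clone 38 and between 9006 and 9536 in HCT116 KO. MAGEA genes are near-identical copies and their single values are uncertain.

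Markers of immune, endothelial and stromal cells were mostly at or near 0 in both lines. Of 15 listed, 14 were found and 4 were tested. The defining immune and endothelial markers *PTPRC*, *CD3E* and *CDH5* were at or below 2.27 normalized read counts on average in both lines, and the stromal markers *DCN* and *PDGFRB* at or below 7.17. Of the 4 tested, *LUM* and *CD14* were higher in HT29 KO and *COL1A1* and *ACTA2* in HCT116 KO. *LUM*, a small proteoglycan of connective tissue, was at 82.5, 108, 1125 and 1111 in HT29 KO. Clone 38 was above clone 28, whereas the HCT116 libraries were at 0, 0, 3.21 and 0. The summed markers ran from 318 to 1313 in HT29 KO and from 371 to 508 in HCT116 KO.

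Of 13 reference genes often used as constant controls, 10 were not called. *SDHA* and *GUSB* were higher in HT29 KO, by 1.56 ± 0.16 and 1.13 ± 0.20, and *POLR2A* was higher in HCT116 KO, by −1.40 ± 0.39. *GAPDH* was at 47824 in HT29 KO and 87679 in HCT116 KO on average (log2 difference −0.95, not called), and *ACTB* at 146117 and 135537.

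The clones of HT29 differed more from each other than those of HCT116. Of the 15771 tested genes, 3484 (22.1%) differed by more than 1 on the log2 scale between the means of HT29 KO clones 28 and 38, and 1142 (7.24%) between HCT116 KO clones 44 and 47. No gene was tested here between clones. The 5 called genes with the widest range between clones, among those whose lines did not overlap, were *CALD1*, *MAGEA3*, *GABRP*, *CDH3* and *OAS2*, and in each of them the range was that of HT29. *CALD1*, an actin-binding protein of smooth muscle and other cells, was at 0, 4.89, 1068 and 712 in HT29 KO and 3677, 4428, 3251 and 3803 in HCT116 KO. HT29 clone 28 was near 0 and clone 38 was within an order of magnitude of HCT116. *MAGEA3* showed the same order of clones, with 2.01, 1.96, 854 and 1032 against 3092, 2968, 3025 and 3213. *GABRP*, a GABA receptor subunit, was at 17.1, 13.7, 3295 and 4543 in HT29 KO and 0, 0, 5.35 and 0 in HCT116 KO. For *OAS2* the order of HT29 clones was reversed, with 5960.5, 3854, 26.6 and 28.5 against 2.95, 0.942, 6.42 and 0. With clone means, the adjusted p of these 5 genes in limma ran from 0.0779 for *CDH3* to 0.176 for *MAGEA3*, and they lost their call. Of 108 named genes called in KO, 12 others lost it with clone means as well, with adjusted p from 0.0509 for *BMP2* to 0.17 for *KRT81*. Among these were *BMP2*, *CDH1*, *HNF4A*, *HLA-B*, *KRT7*, *CALB2*, *ABCC2*, *CMBL*, *IFITM3*, *AXIN2* and *KRT81*.

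The WT clones of the same lines, which share no library with the KO clones, showed to what extent the KO line difference was there with β-CATENIN. In WT, 5780 of 15668 tested genes (36.9%) were called, 2668 (17%) higher in HT29 and 3112 (19.9%) higher in HCT116. Of 15148 genes tested in both, 4963 were called in KO and 5449 in WT, and 3923 were called in both, which is 79.0% of the KO list and 72.0% of the WT list. The direction was the same for 3901 of the 3923 and opposite for 22. Pearson's correlation of the log2 line differences across these genes was 0.926 and Spearman's was 0.858, as a description across genes, which are not independent. All of the 20 leading genes that were tested in WT had the same sign there, with *CST1* below the filter in WT.

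**Figure D1:**
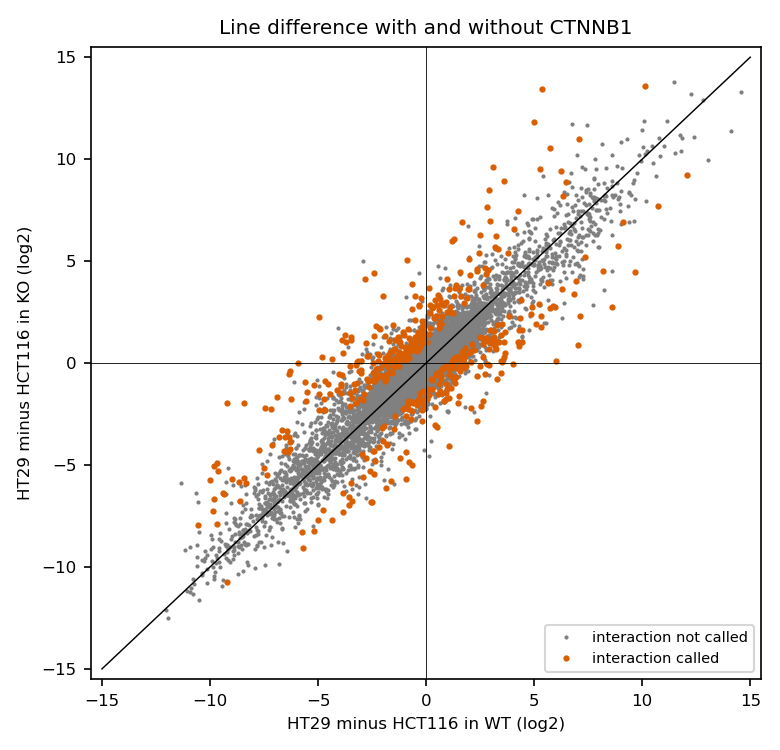
Log2 line difference (HT29 minus HCT116) in KO (vertical axis) against WT (horizontal axis) for the genes tested in both, with genes whose interaction was called in orange and the diagonal of equal differences as a line. Most genes lie along the diagonal (Pearson's r across genes 0.926), and called interactions lie on both sides of it.

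Whether a line difference itself changed with the loss of β-CATENIN was tested as an interaction over 16 libraries, the KO line difference minus the WT line difference. Of 17005 tested genes, 590 (3.47%) were called, 361 (2.12%) with a positive interaction, toward HT29 in KO, and 229 (1.35%) with a negative one. Of the 5339 genes called in KO, 369 (6.91%) had a called interaction. Among the 1040 genes called in KO and not in WT, 111 had a called interaction, so that for the other genes a difference between KO and WT was not shown. The count rests on the clones, as 231 genes were called with the clone as a random effect and 3 with clone means, where 1170 had an unadjusted p under 0.05. Without HT29 KO clone 28 the count was 1748 of 17970 tested genes, and without HT29 KO clone 38 it was 1066 of 17918. HT29 KO then held rounds of a single clone, so that the spread between its clones was not in the fit. These counts are therefore not directly comparable with 590.

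The 5 largest positive interactions among well-expressed genes were those of *CST4*, *REG4*, *LUM*, *KRT20* and *RAB3B*. *CST4*, a cystatin of saliva and tears, was at 1565, 869, 1344 and 2102 in HT29 KO and 3.84, 0, 2.96 and 0 in HT29 WT 11A, 11B, 40A and 40B, with no read in any HCT116 library. Its interaction was 9.39 ± 0.68 (adjusted p = 1.37e-06, and 0.000191 with the clone as a random effect). *KRT20* was at 3669 ± 2192 in HT29 WT and 77.8 ± 19.2 in HCT116 WT (SD, n = 4 each), against 16524 ± 4968 and 0.484 ± 0.558 in KO. The KO values were higher than WT in every HT29 library and lower than WT in every HCT116 library, so that a line difference of 5.34 in WT became 13.46 in KO. The interaction of *KRT20* was 8.12 ± 0.58 (adjusted p = 1.37e-06, and 2.3e-05 with a random effect of the clone). In HT29 WT, *REG4* was at 13.4, 8.11, 0 and 3.76, and *LUM* held no read. *REG4* had an interaction of 8.54 ± 1.93 that was not called with the clone as a random effect (adjusted p = 0.059). *RAB3B*, a small GTPase of vesicle transport, was at 0, 0, 1.98 and 2.51 in HT29 WT, at 47.3, 59.7, 1251 and 771 in HT29 KO and at 874, 742, 966 and 1061 in HCT116 KO. It was not called between KO lines (−1.97 ± 1.00, adjusted p = 0.136), where the clones of HT29 differed and clone 38 overlapped HCT116, and was −9.23 in WT.

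The 5 largest negative interactions were those of *NNMT*, *WNT11*, *WNT7A*, *CALB2* and *TGFBI*. *WNT11*, which encodes a WNT ligand, was at 1478, 2096, 1357 and 1798 in HT29 WT and 5.03, 3.91, 11.4 and 16.9 in HT29 KO, and the HCT116 values were 6.88, 6.59, 16.1 and 2.85 in KO. The KO lines overlapped and stayed below the filter in most libraries, whereas the WT line difference was 6.68 (interaction −6.49 ± 0.64, adjusted p = 1.84e-05). *TGFBI*, a secreted matrix protein, was at 1608, 1570.2, 2398 and 2189.7 in HT29 WT and 128, 108, 75.9 and 75.2 in HT29 KO, with at most 7.49 in HCT116 KO, so that the line difference went from 9.66 in WT to 4.46 in KO. *CALB2*, the calcium-binding protein calretinin, was at 2604, 1549, 666 and 224 in HCT116 KO and 19.7 ± 11.1 in HCT116 WT, with HT29 at 6288 ± 2393 in KO. HCT116 KO clone 44 was above clone 47, and both were below HT29. *WNT7A* was at 995, 959, 62.1 and 33.3 in HCT116 KO, at or below 6.66 in HCT116 WT, and held 1 read in HT29 KO. *NNMT*, nicotinamide N-methyltransferase, was at 208, 166, 1.90 and 2.59 in HT29 KO and 1683 ± 399 in HT29 WT, and both libraries of HT29 clone 38 held at most 3 reads. The interactions of *WNT7A* and *NNMT* were not called with the clone as a random effect (adjusted p = 0.0582 and 0.0711).

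Of 15 tested keratin genes, 7 had a positive interaction, where 2.12% of all genes had one. They were *KRT20*, *KRT13*, *KRT17*, *KRT19*, *KRT23*, *KRT16* and *KRT6A*. When the clone was a random effect, 2 of 15 were called, where 231 of all 17005 tested genes were. *KRT13* and *KRT17* had interactions of 3.21 ± 0.78 (adjusted p = 0.0298) and 3.98 ± 0.91 (adjusted p = 0.0195), and neither was among the 2, with adjusted p = 0.0878 and 0.111 in that fit. By the same fit, 4 of 19 tested gut transcription factors were called, 2 in each direction. In the WNT pathway list, 3 of 23 tested genes had a positive and 4 a negative interaction. *RNF43* was at 3968 ± 407 in HT29 WT and 1726 ± 753 in HCT116 WT, a line difference of 1.30 that became 6.07 in KO (interaction 4.77 ± 0.42, adjusted p = 1.22e-05). *EPHB2* went the other way, from −3.49 in WT to −5.87 in KO (−2.39 ± 0.36, adjusted p = 0.00113). *EHF* was at 1015 ± 358 in HCT116 WT and 4.39 ± 2.88 in HCT116 KO, and its line difference rose from 3.11 to 9.63.

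The line difference also had a regional component along the genome. Over 23 chromosomes without Y, the median log2 difference of the tested genes ranged from −0.55 on chromosome 8 (531 genes) to 0.49 on chromosome 13 (287 genes). On chromosome 8, 189 genes (35.6%) were called higher in HCT116 and 13.9% higher in HT29, whereas on chromosome 13 10.8% were higher in HCT116 and 24.7% in HT29. In WT the medians of these chromosomes were −0.39 and 0.51, and Pearson's correlation of KO and WT medians over the 23 chromosomes was 0.895. Both comparisons use cells of the same lines, and the points share their genes. The 4 pairs of a HT29 and a HCT116 clone gave medians from −0.59 to −0.53 for chromosome 8 and from 0.38 to 0.60 for chromosome 13. Chromosomes 18, 22 and 14 followed on the HCT116 side, with medians of −0.41, −0.34 and −0.34, and chromosomes 11 and 20 were on the HT29 side, with 0.30 and 0.25. The order of the latter rested on the clones, as chromosome 11 was at 0.12 without HT29 KO 38, below chromosomes 15, 7, X and 20. The range over clone pairs was wide for chromosome 15 (−0.00632 to 0.39), chromosome 17 (−0.25 to 0.13), chromosome 7 (0.00204 to 0.35) and chromosome 11 (0.12 to 0.47). Without HT29 KO 28, the medians of chromosomes 15 and 17 changed sign, as did those of chromosomes 2, 5 and 9, which lay near 0.

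Within chromosome 8, windows differed in sign. In windows of 10 Mb with at least 20 tested genes, the 5 lowest medians of 267 windows in the genome were the 5 windows from 1 to 50000000 of chromosome 8 (GRCh37), from −1.68 to −1.18, with WT medians from −1.46 to −0.67. The highest was the window from 120000001 to 130000000 of the same chromosome, at 1.18 over 44 genes in KO and 0.45 in WT. Next was the end of chromosome 10, from 130000001 to 140000000, with 0.87 in KO and 0.65 in WT over 21 genes tested in KO. Of the 267 windows, 219 had the same sign in KO and WT. DNA copy number was not measured in these libraries, and its part in the regional medians was not tested.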

How the data were processed

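RNA-seq libraries (TruSeq RNA Sample Prep v2, unstranded, paired reads) were aligned by the authors with STAR 2.7.5b to GRCh37, and reads per gene were counted with featureCounts 2.0.1. The annotation is not given in the sources used here. The deposited signal of each library is a gene count divided by 1 DESeq2 size factor, and whole reads were recovered for 100% of the values (tolerance 0.001). Tables of the authors' own comparisons hold log2 fold changes and p-values and were not used. Every column was assigned to a sample.

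Of 58051 gene IDs, 55604 (95.8%) were given a symbol and position from GENCODE 44 lifted to GRCh37. Promoters came from RefSeq (GRCh38.p14) and were matched by symbol. Genes with a normalized read count of at least 10 in at least 4 libraries were tested with limma 3.58.1 (trend, robust) in R 4.3.3 on log2(value + 1), without a block for the round. Where libraries were left out, the filter asked for as many libraries as the smallest group still held. Called genes had a Benjamini-Hochberg adjusted p under 0.05 and an absolute log2 difference over 1. A count test had been planned, and because the deposited unit is a scaled signal, edgeR 4.0.16 and DESeq2 1.42.0 on the recovered reads served as alternatives. The interaction was fitted over 16 libraries. The fit was tested on simulated data. Python 3.11.15, numpy 2.4.6, pandas 2.3.3, scipy 1.17.1 and matplotlib 3.10.9 were used for all other steps.

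The genes named were *CTNNB1*, the 10 genes with the largest called difference in each direction with a mean of at least 500 in the higher line and no overlap of libraries, the 2 largest called members of each list in each direction and members that define a list, the 5 largest interactions in each direction with a mean of at least 500, and the 5 called genes with the widest range between clones. Further genes were named after their values were seen. The comparison and the gene lists were chosen with earlier results of these data known. *PECAM1* was not matched. Genes of the Y chromosome and *XIST* are not reported. Some other genes and 2 of the gene lists examined are not reported here. The study describes rounds A and B as independent biological replicates, whereas the labels do not say whether they were separate cultures. Counting intervals and floors of 3 reads cover counting error only.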

Additional observations from a re-analysis of the deposited data

Results flagged for a closer look

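Within a group of 4 libraries, the highest or lowest value stood apart from the other 3 by Dixon's test in 15 of 206 groups tested over 115 named genes, and chance gives about 1 in 20. Library 47A was the highest HCT116 KO library for 8 of the 15 groups, with 4.28 for *AGR2*, 5.35 for *TXNIP*, 9.63 for *MUC5AC*, 9.63 for *REG4*, 13.9 for *TGFB2*, 13.9 for *COL4A2*, 4.28 for *NNMT* and 5.35 for *GABRP*, and the lowest for *BMP4*, with 162. For *AGR2*, *TXNIP*, *MUC5AC*, *NNMT* and *GABRP* the other 3 libraries were at 0, so that any read in 47A would have stood apart. Library 38A was the highest HT29 KO library for 4, with 31292 for *LYZ*, 11341 for *MUC5AC*, 6346 for *RNF43* and 1496 for *FOSL1*. Library 44A was the highest HCT116 KO library for *CDX2*, with 478, and 28A the highest HT29 KO library for *BMP7*, with 8.05. All are normalized read counts.

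The line difference of 27 named genes differed between KO and WT in limma's interaction test (adjusted p under 0.05 and absolute log2 over 1). Among them were the 5 genes in each direction that were named for their interaction, and *CTNNB1*, the knocked-out gene. The count is therefore no result about the named genes. Over all tested genes, 590 of 17005 (3.47%) were called. On the log2 scale the interaction was 9.39 for *CST4*, 8.54 for *REG4*, 8.31 for *LUM*, 8.12 for *KRT20*, 7.26 for *RAB3B*, 6.95 for *CST1*, 6.84 for *MUC5AC*, 6.53 for *EHF*, 4.77 for *RNF43*, 3.98 for *KRT17*, 3.46 for *AGR2*, 3.21 for *KRT13*, 3.15 for *BMP4*, 2.40 for *TP53INP1*, 1.84 for *DUSP6*, 1.44 for *CTNNB1*, 1.29 for *CMBL* and 1.11 for *HLA-C*. It was −6.67 for *NNMT*, −6.49 for *WNT11*, −5.83 for *WNT7A*, −5.83 for *CALB2*, −5.21 for *TGFBI*, −3.31 for *AXL*, −3.03 for *ITGB6*, −2.39 for *EPHB2* and −2.23 for *FOSL1*. Fitting the clone as a random effect removed the call for *AGR2*, *REG4*, *KRT13*, *AXL*, *BMP4*, *CMBL*, *TP53INP1*, *HLA-C*, *NNMT*, *WNT7A* and *KRT17*.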

How the results depend on the processing

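Each line was represented by 2 clones, and the count of interactions is the value most limited by this. In KO, 5339 genes were called with all settings as described, 5360 with edgeR, 5553 with DESeq2, 4803 with the clone as a random effect and 3986 with clone means. Requiring a value of at least 10 in every library left 3020 called in KO (1629 higher in HT29, 1391 higher in HCT116) and 3325 in WT (1744 and 1581), since genes silent in one line are then not tested. A test against a log2 difference of 1 (limma treat) called 2904 in KO (1292 and 1612) and 3503 in WT (1491 and 2012). Leaving out each library in turn gave 5166 to 5825 genes in KO (2424 to 2749 higher in HT29, 2646 to 3076 higher in HCT116), 5871 to 6165 in WT (2628 to 2836 and 3098 to 3366), and 461 to 665 interactions (290 to 396 positive, 170 to 269 negative). The range was wider for clones. Leaving out each clone in turn gave 4656 to 6691 genes in KO (2309 to 3194 higher in HT29, 2344 to 3497 higher in HCT116). In WT it gave 5868 to 6901 (2776 to 3149 and 3092 to 3752). The line concerned then held rounds of a single clone, so that the spread between its clones was not in the fit.

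Interactions numbered 898 with DESeq2 (373 negative), 231 with the clone as a random effect (147 positive, 84 negative), 3 with clone means (3 positive, 0 negative, where 1170 genes had an unadjusted p under 0.05), 326 with a value of at least 10 in every library (191 and 135), 969 with the spread shared over 24 libraries (581 and 388) and 106 with treat (72 and 34). Leaving out a whole clone gave 353 (211 and 142) without HCT116 KO 44, 362 (217 and 145) without HCT116 WT 4, 360 (218 and 142) without HCT116 WT 6, 1748 (977 and 771) without HT29 KO 28, 1066 (649 and 417) without HT29 KO 38 and 971 (613 and 358) without HT29 WT 11. With a clone left out, its group held rounds of a single clone, and 17918 to 18071 genes were tested, against 17005 with all clones. The cause of the changes in the count was not tested.

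With a value of at least 10 in every library, 66.2% of the sum of squares lay between lines, 21.9% between clones and 11.9% between rounds. Quantile normalization moved the median of chromosome 4 to −0.0917, of chromosome 5 to 0.00605, of chromosome 18 to −0.27 and of chromosome 21 to −0.38. Leaving out each clone in turn moved chromosome medians over the ranges 0.0315 to 0.0815 on 1, −0.0322 to 0.0473 on 2, −0.14 to −0.0481 on 3, −0.0257 to 0.0263 on 5, 0.0155 to 0.34 on 7, 0.12 to 0.46 on 11, −0.0193 to 0.38 on 15, −0.27 to −0.0897 on 16, −0.25 to 0.12 on 17, −0.45 to −0.36 on 18, −0.14 to 0.0027 on 19, 0.21 to 0.33 on 20, −0.37 to −0.25 on 21, −0.43 to −0.29 on 22 and 0.16 to 0.29 on X. Clone means left 0 keratins, 3 junction genes, 1 MHC class I gene and 1 interferon-stimulated gene higher in HCT116, and 6 junction genes, 3 MAPK genes and 6 interferon-stimulated genes higher in HT29. Of all 15771 tested genes, clone means left 2118 higher in HCT116 and 1868 higher in HT29. The clone as a random effect left 1 keratin and 0 reference genes higher in HCT116, where 2511 of all tested genes were. Quantile normalization left 1 keratin higher in HCT116 (2694 of all tested genes). DESeq2 called 18 interferon-stimulated genes higher in HT29 (2807 of all tested genes).

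Of 3315 values of the KO difference of 113 named genes under the alternatives, 3196 kept their direction and their side of the threshold, 115 no longer passed, 3 newly passed and 1 reversed: *RAB3B* was at 0.12 without HT29 KO clone 28, against −1.97 and not called with all libraries.

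The differences between rounds A and B correlated positively between KO clones 28, 44 and 47 (r across genes 0.19 to 0.30) and negatively between clone 38 and each of these (−0.25 to −0.24), so that the round was not taken as a pairing. With the round as a replicate block, 5169 genes were called in KO by limma and 5163 by edgeR, 5738 and 5744 in WT, and 532 and 421 interactions. The block left 1 keratin higher in HCT116 with either tool and 1 interferon-stimulated gene higher in HCT116 with edgeR. Of all tested genes, 2694 were higher in HCT116 with limma and 2586 with edgeR.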
